A study of Mus musculus with 4 samples.

Results

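Cluster 5 is 1 of the 14 groups that the study's authors drew among the myeloid cells of mouse atherosclerotic aorta. It holds the 209 cells that the authors' deposited cell table numbers 5, of 3002 cells in all (6.96%), and it is described here as monocyte-like from 4 marker genes, Ly6c2, Chil3, Ccr2 and Plac8. The cells were sorted as live CD45+ leukocytes of atherosclerotic aorta, although cluster 9 also carries fibroblast genes, and came from Apoe-/- mice on a western diet (13 weeks). Mice without apolipoprotein E cannot clear lipoprotein remnants and form atherosclerotic plaques on such a diet. The study used 6 mice, and its libraries are 2 biological replicates with 2 libraries each (1-1 and 1-2, 2-1 and 2-2). How many mice each library pools, their age and their sex are not given in the labels. The series has 1 group and no control mice, so every comparison below is between cell clusters within the same libraries. The authors had kept clusters that expressed Adgre1, Csf1r, Fcgr1 and Lyz2 or Zbtb46, Itgax and Flt3, so those genes chose the cells. Apoe itself had 17 UMIs in cluster 5, or 4.34, 5.80, 27.6 and 10.1 CPM in libraries 1-1, 1-2, 2-1 and 2-2, against 29.9, 34.0, 13.6 and 18.1 CPM in the comparison clusters. A 3′ tag can lie outside the disrupted part of the gene and so does not check the knockout.

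Monocytes are made in the bone marrow and circulate in the blood. In mice the classical ones carry Ly6C on their surface, leave the marrow through the chemokine receptor CCR2, adhere to inflamed endothelium and enter the plaque, where they become macrophages or cells that present antigen. The nonclassical ones patrol the vessel wall and depend on the transcription factor Nr4a1. In atherosclerosis the entry of classical monocytes feeds the growth of the plaque.

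Counts are of unique molecular identifiers (UMIs), each standing for 1 captured RNA molecule. Cluster 5 gave 1470117 UMIs, 747577 in biological replicate 1 (110 cells) and 722540 in biological replicate 2 (99 cells). Its cells had a median of 5859 UMIs, 1851 genes and 4.03% mitochondrial UMIs. Libraries 1-1 and 2-1 were deeper, with medians of 11989 and 10486 UMIs per cell of cluster 5, than libraries 1-2 and 2-2, with 5015 and 5315. No barcode occurred in more than 1 library. Levels are CPM, the UMIs of a gene in each 1000000 of the summed UMIs of a cluster in a biological replicate. The comparison clusters are the 9 others whose median exceeded 4000 UMIs per cell (clusters 0, 1, 2, 4, 6, 9, 11, 12 and 13, 2161 cells), each with equal weight. The floor that 3 UMIs set in cluster 5 is 4.01 CPM in biological replicate 1 and 4.15 CPM in biological replicate 2.

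Cluster 5 made up a similar share of the myeloid cells in every library. It was 19 of 236 cells in library 1-1 (8.05%, exact 95% interval 4.92 to 12.3%). It was 91 of 1231 cells in library 1-2 (7.39%, exact 95% interval 5.99 to 8.999%). Library 2-1 held 31 of 550 (5.64%, 3.86 to 7.91%). Library 2-2 held 68 of 985 (6.90%, 5.40 to 8.67%). The mean was 6.996 ± 1.02% (SD, n = 4 libraries), and the 4 intervals overlap. Among cells of at least 2000 UMIs the mean share was 8.65%, since the shallow clusters then lose cells. The intervals cover counting error only.

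The given markers were checked first. Ly6c2 encodes the Ly6C surface protein of classical monocytes and lies on chromosome 15 (mm10, 75108158 to 75111970, minus strand). It had 355, 418, 215 and 403 CPM in cluster 5 of libraries 1-1, 1-2, 2-1 and 2-2, against 7.95, 14.5, 10.996 and 8.71 CPM in the comparison clusters of the same libraries. The ranges do not overlap, and the log2 ratio over the biological replicates was 4.43 ± 0.01 (SD, n = 2, as for every ratio below). Chil3, a chitinase-like protein of monocytes and alternatively activated macrophages (chromosome 3, 106147554 to 106167564, minus strand), had 113, 399, 193 and 315 CPM in cluster 5 of the 4 libraries, against 2.68, 6.54, 2.86 and 1.54 CPM in the comparison clusters. Again every library of cluster 5 lies above every comparison value, with a log2 ratio of 5.03 ± 0.28, and the deeper libraries 1-1 and 2-1 gave the lower levels. Plac8, a small cysteine-rich protein of myeloid cells (chromosome 5, 100553725 to 100572245, minus strand), had 1157, 2360.2, 1225 and 1749 CPM in cluster 5, against 191, 225, 299.97 and 225 CPM in the comparison clusters, a log2 ratio of 2.85 ± 0.40. Plac8 is not confined to cluster 5: it also reached 856 CPM in cluster 11 and 756 CPM in cluster 4.

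Ccr2, the receptor for the chemokine CCL2 (chromosome 9, 124101950 to 124113557, plus strand), does not set cluster 5 apart. It had 329, 594, 393 and 358 CPM in cluster 5 of the 4 libraries, against 267, 319, 367 and 311 CPM in the comparison clusters. These ranges overlap, and the log2 ratio was 0.44 ± 0.39. Cluster 13 had the highest level, 1075 CPM, and clusters 4, 1 and 6 had 422, 414 and 398 CPM, close to the 443 CPM of cluster 5. Clusters 0, 2 and 12 had 73.0, 28.4 and 16.6 CPM. The label therefore rests on Ly6c2, Chil3 and Plac8, and Ccr2 separates several clusters from clusters 0, 2 and 12.

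**Figure D1:**
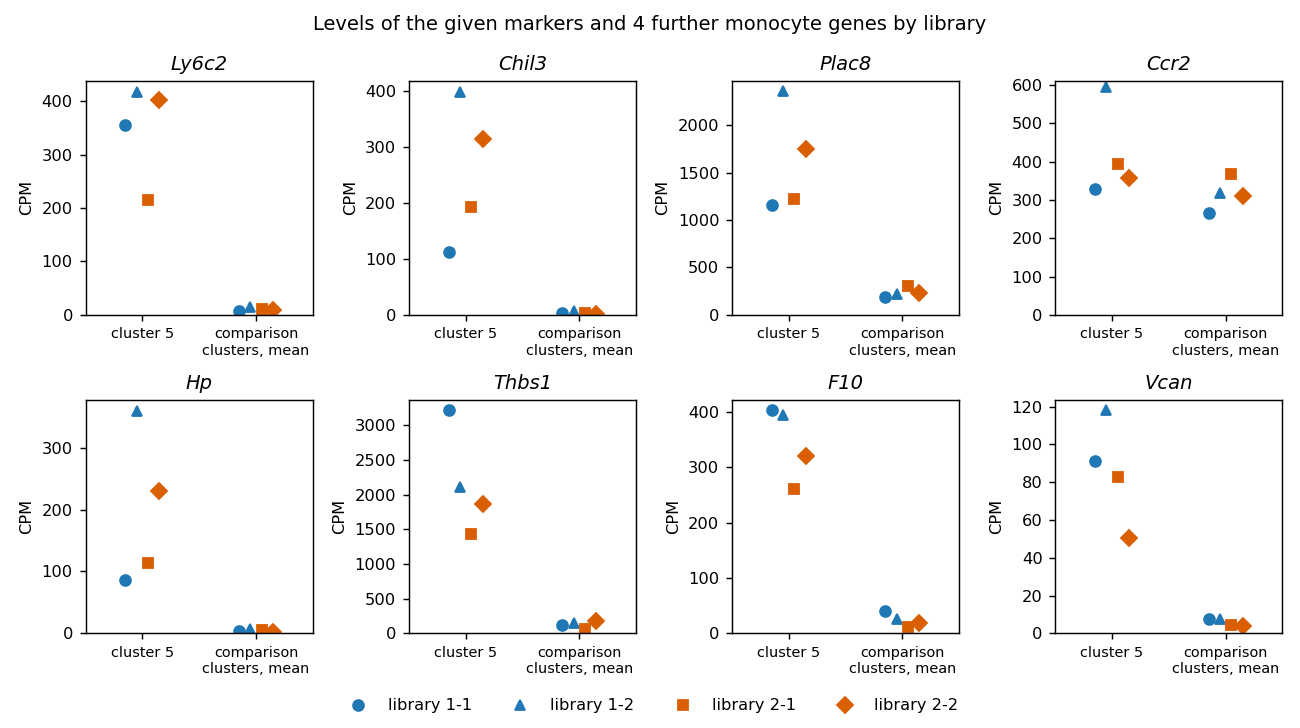
Levels of the 4 given markers and of Hp, Thbs1, F10 and Vcan (CPM, linear axes from 0), with cluster 5 on the left and the mean of the 9 comparison clusters on the right of each panel; a symbol is 1 of the 4 libraries. In 7 panels every library of cluster 5 lies above every comparison value, and for Ccr2 the values overlap.

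The bases upstream of the 3 markers on which the label rests are shown because these genes carry the name of the cluster. They are RefSeq sequences of build GRCm38.p6, 5′ to 3′ on the strand of the gene, and end before the annotated gene. Capitals mark the PU box GAGGAA, the core that the myeloid transcription factor PU.1 binds, and TTNCNNAA, a loose form of the site of the C/EBP family, each searched on both strands. Ly6c2 was read from chr15:75111972-75112221, Chil3 from chr3:106167565-106167814 and Plac8 from chr5:100572246-100572455, all on the minus strand.
Ly6c2: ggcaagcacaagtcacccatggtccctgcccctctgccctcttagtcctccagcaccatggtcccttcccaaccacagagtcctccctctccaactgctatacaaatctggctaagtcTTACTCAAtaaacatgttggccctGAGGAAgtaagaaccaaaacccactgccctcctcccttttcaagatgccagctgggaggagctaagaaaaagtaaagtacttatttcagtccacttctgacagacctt
Chil3: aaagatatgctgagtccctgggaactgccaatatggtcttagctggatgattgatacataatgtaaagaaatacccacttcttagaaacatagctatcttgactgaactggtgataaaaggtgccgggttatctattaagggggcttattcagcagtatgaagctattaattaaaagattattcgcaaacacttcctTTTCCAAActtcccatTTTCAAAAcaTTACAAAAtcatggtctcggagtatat
Plac8: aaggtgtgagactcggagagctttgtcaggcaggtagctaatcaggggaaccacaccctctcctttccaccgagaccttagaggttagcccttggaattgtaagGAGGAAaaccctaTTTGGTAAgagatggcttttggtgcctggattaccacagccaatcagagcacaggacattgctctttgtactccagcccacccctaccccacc
Ly6c2 and Plac8 hold 1 PU box and 1 C/EBP match each, and Chil3 holds 3 C/EBP matches and no PU box in this window. The Plac8 sequence has 210 bases, since its window was shortened where it meets the annotated gene. Over the upstream windows of 27025 genes, 250 bases each and so longer than that of Plac8, 23.1% hold GAGGAA and 36.9% hold TTNCNNAA. Of the 15 genes with the highest ratios in cluster 5, 12 have a window, and 4 of those hold GAGGAA and 9 hold TTNCNNAA. A match is a string of letters and not a measured binding site. Ly6c2 has a near copy on the same chromosome, Ly6c1, which shares 98.0% of the aligned bases with it over the last 300 bases of the longest transcripts, where 3′ tags lie. Ly6c1 was counted 0 times in cluster 5, against 528 UMIs of Ly6c2, so the split of reads between the copies is uncertain.

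Across all genes, 5161 reached a mean of 20 CPM over both sides of the comparison. A gene was called higher or lower where its ratio was at least 2-fold in the same direction in both biological replicates, after 5 CPM was added to each side. By this rule 144 genes were higher in cluster 5 (2.79% of those measured) and 232 were lower (4.5%), and the median log2 ratio of all 5161 was -0.04. A further 65 genes reached 2-fold higher in biological replicate 1 alone and 57 in biological replicate 2 alone. Cluster 5 exceeded every one of the 9 comparison clusters for 130 of the 144 higher genes. It lay below every comparison cluster for only 32 of the 232 lower genes. The authors grouped these cells by these same counts, so the calls describe the cluster and carry no test.

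**Figure D2:**
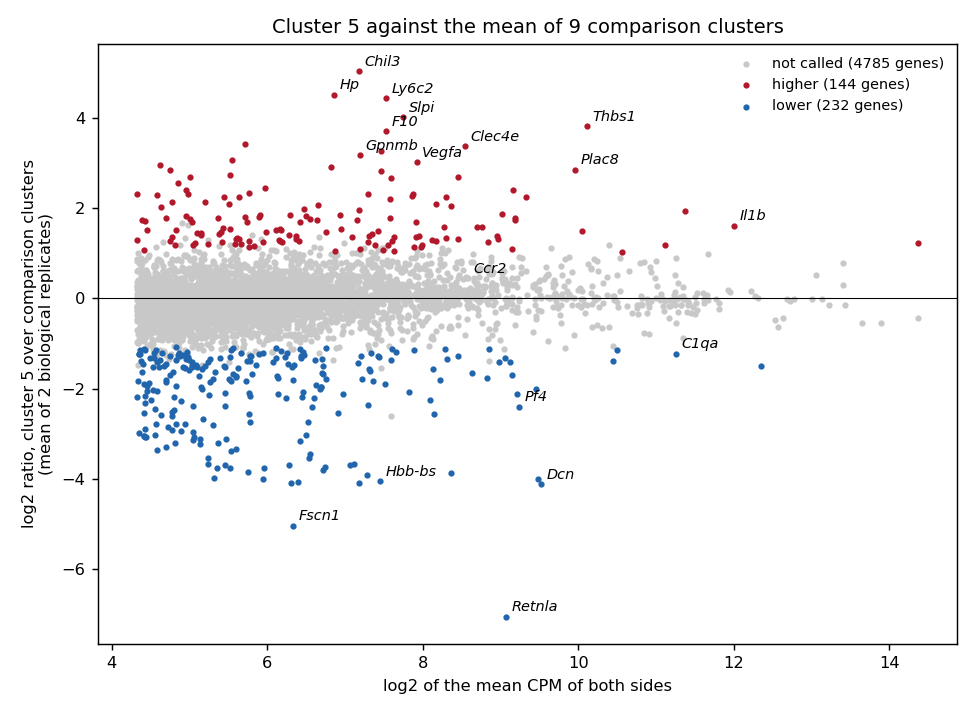
Log2 ratio of cluster 5 over the 9 comparison clusters (vertical axis, mean of 2 biological replicates, 5 CPM added to each side) against the log2 of the mean CPM of both sides (horizontal axis) for 5161 genes. Red genes were called higher (144), blue genes lower (232) and grey genes neither; Chil3, Hp and Ly6c2 have the highest ratios and Retnla the lowest.

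After Chil3, the genes with the highest ratios were Hp, Ly6c2, Slpi, Thbs1 and F10. Hp, which encodes the haemoglobin-binding protein haptoglobin, had 276 and 177 CPM in cluster 5, against 6.82 and 3.37 CPM in the comparison clusters (log2 ratio 4.51 ± 0.09). Slpi, an inhibitor of leukocyte proteases, had 453 and 353 CPM in cluster 5, against 48.0 and 7.07 CPM in the comparison clusters (log2 ratio 4.002 ± 1.26). Both were low in nearly every comparison cluster, although Slpi reached 145 CPM in cluster 0. Few cells carried Slpi: of 200 cells drawn down to 2000 UMIs, 35 had it, and 10 cells held 70.5% of its UMIs. Thbs1, the matrix protein thrombospondin 1, was the most abundant of the leading genes, with 2455 and 1677 CPM in cluster 5, against 146 and 133 CPM in the comparison clusters (log2 ratio 3.81 ± 0.30). F10, coagulation factor X, had 397 and 293 CPM in cluster 5, against 29.5 and 15.5 CPM in the comparison clusters (log2 ratio 3.70 ± 0.22). For Thbs1 and F10 the next highest comparison cluster was cluster 13, at 639 and 118 CPM. Vcan, the proteoglycan versican, had 109.7 and 65.0 CPM in cluster 5, against 7.77 and 4.08 CPM in the comparison clusters (log2 ratio 3.06 ± 0.15).

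Inhba, the activin A subunit, had 112 and 88.6 CPM in cluster 5, against 5.08 and 4.44 CPM in the comparison clusters (log2 ratio 3.43 ± 0.16). It was found in 14 of the 200 drawn-down cells, and 10 cells held 86.7% of its UMIs. Clec4e, the lectin Mincle that senses fungal and mycobacterial glycolipids, had 753 and 603 CPM in cluster 5, against 91.1 and 39.9 CPM in the comparison clusters (log2 ratio 3.37 ± 0.55). Vegfa, the vascular endothelial growth factor, had 441 and 430.4 CPM in cluster 5, against 44.6 and 55.0 CPM in the comparison clusters (log2 ratio 3.02 ± 0.22). Cluster 1 came next for Clec4e and for Vegfa, at 132 and 104 CPM. Slc7a11, the cystine importer, had 381 and 263 CPM in cluster 5, against 43.7 and 18.2 CPM in the comparison clusters, a log2 ratio of 3.26, and Gsr, glutathione reductase, had 199 and 208 CPM in cluster 5, against 25.1 and 21.1 CPM in the comparison clusters, a log2 ratio of 2.90. Gpnmb, a glycoprotein of lipid-laden macrophages, had 237 and 293 CPM in cluster 5, against 37.2 and 16.3 CPM in the comparison clusters, a log2 ratio of 3.16.

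Several of these genes are as high or higher in clusters left out of the comparison for their depth. Cluster 7, with a median of 1601 UMIs and neutrophil genes, had 2639.9 CPM of Clec4e and 1086 CPM of Slc7a11. It had 771 CPM of Slpi, 359 CPM of Hp and 319 CPM of Gsr. For Thbs1 it had 1376 CPM, below the 2066 CPM of cluster 5. Cluster 8, with a median of 980 UMIs, had 1722 CPM of Gpnmb and 10361 CPM of Spp1. Chil3, Ly6c2, Plac8, Thbs1, F10, Inhba, Vcan and Vegfa were highest in cluster 5 among all 14 clusters. With all 13 other clusters in the comparison, 120 genes were called higher, of which 96 were among the 144.

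The lowest ratios come mostly from genes that mark 1 of the comparison clusters. Retnla, a resistin-like protein of alternatively activated macrophages, had 0 and 8.30 CPM in cluster 5 (6 UMIs), against 1009.7 and 1137 CPM in the comparison clusters, and 7889 CPM in cluster 13. Fscn1, the actin bundler of mature dendritic cells, and Serpinb6b, a protease inhibitor, had 0 UMIs in cluster 5. Set against the floor of 3 UMIs over the cluster, they were at least 79.1-fold and at least 39.1-fold lower in cluster 5, and cluster 12 had 1434 and 638 CPM. Cluster 9 was highest for 6 others, among them collagens and other matrix genes. Dcn, the proteoglycan decorin, had 140.5 and 38.8 CPM in cluster 5, against 1478 and 1292 CPM in the comparison clusters, a log2 ratio of -4.12, and cluster 9 had 12033 CPM. Col1a1, Col3a1, Mmp3, Serping1 and Mgp had between 3.34 and 94.2 CPM in cluster 5, against 119.8 to 1335 CPM in the comparison clusters. Hbb-bs, a globin of red cells, had 17.4 and 13.8 CPM in cluster 5, against 327 and 341 CPM in the comparison clusters, a log2 ratio of -4.05, and cluster 1 had 1513 CPM. The 5 erythroid genes, Hbb-bs included, had 13.0, 29.0, 12.3 and 20.2 CPM in cluster 5 of libraries 1-1, 1-2, 2-1 and 2-2, against 2159, 30.3, 1197 and 13.6 CPM in the comparison clusters, so the excess lies in the 2 deeper libraries. Cluster 9 was the highest comparison cluster for 75 of the 232 lower genes and cluster 12 for 50. With the median of the comparison clusters in place of their mean, 48 genes were called lower, of which 44 were among the 232, while 204 were called higher, of which 135 were among the 144. Without clusters 6 and 9 in the comparison, the log2 ratios of Dcn and Mgp were 0.49 and 0.05.

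The gene lists were then read by role, each against the background of 2.79% higher and 4.5% lower and the median of -0.04 over all genes measured. Of 11 further genes of classical monocytes, all of which reached the level, 6 were called higher and none lower (median log2 ratio 1.68). Hp, Thbs1, Clec4e and Vcan are given above. Ms4a4c, a membrane protein of the MS4A family, had 421 and 352 CPM in cluster 5, against 81.5 and 71.6 CPM in the comparison clusters, a log2 ratio of 2.26. F13a1, a coagulation transglutaminase of some monocytes and resident macrophages, was not among them, with 201 CPM in cluster 5, against 356 CPM in the comparison clusters. Of 14 genes of nonclassical monocytes, 9 reached the level, 4 were called higher and 2 lower. Treml4, a receptor that binds dead cells, had 40.1 and 33.2 CPM in cluster 5, against 3.71 and 3.17 CPM in the comparison clusters, a log2 ratio of 2.30. Itgal, the integrin LFA-1 chain, had 73.6 and 52.6 CPM in cluster 5, against 10.98 and 9.65 CPM in the comparison clusters, a log2 ratio of 2.14. Gngt2 and Pglyrp1 were also higher. Cluster 7 had 43.2 CPM of Treml4 and 340 CPM of Pglyrp1, above the 36.7 and 44.3 CPM of cluster 5. It had 60.8 CPM of Itgal and 284 CPM of Gngt2, below the 63.1 and 467 CPM of cluster 5. Gngt2 was higher in cluster 8, outside the comparison, and in comparison cluster 12, at 1529 and 533 CPM. Comparison cluster 11 had 46.9 CPM of Pglyrp1, beside the 44.3 CPM of cluster 5. Eno3 and Ear2 were lower, with cluster 12 highest for Eno3 (771 CPM) and cluster 13 for Ear2 (672 CPM). Under the median of the comparison clusters the log2 ratio of Ear2 was 1.41. Nr4a1, on which nonclassical monocytes depend, had 645 CPM in cluster 5, against 415 CPM in the comparison clusters, and Ace, Spn and Cd300e did not reach the level.

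Receptors that sense microbes and damaged cells included many higher genes. Of 19 in the table, 10 reached the level, 5 were called higher and none lower (median 0.99). Besides Clec4e these were the related lectins Clec4d and Clec4n, the amplifying receptor Trem1 and the inflammasome sensor Naip2. Clec4d had 369 and 300.3 CPM in cluster 5, against 60.4 and 38.3 CPM in the comparison clusters, a log2 ratio of 2.67. Clec4n had 445 and 342 CPM in cluster 5, against 83.1 and 66.4 CPM in the comparison clusters, a log2 ratio of 2.32. Trem1 had 80.3 and 85.8 CPM in cluster 5, against 11.7 and 5.39 CPM in the comparison clusters, a log2 ratio of 2.74. Cluster 7 had 841 CPM of Trem1. It was also above cluster 5 for Clec4d (1498 CPM) and Clec4n (551 CPM), but not for Naip2 (28.8 CPM, against 54.3 CPM). Tlr2 and the lipopolysaccharide co-receptor Cd14 were not called, at 458 CPM in cluster 5, against 264 CPM in the comparison clusters for Tlr2. The cytokine list had 3 of 12 higher and 1 lower. Il1b, the pyrogenic cytokine of the inflammasome, averaged 6212 CPM in cluster 5, against 2026 CPM in the comparison clusters. Cluster 4 was close at 5519 CPM, and cluster 7, outside the comparison, had 11162 CPM. Il1rn, which blocks the receptor of Il1b, had 651 and 401 CPM in cluster 5, against 118 and 93.4 CPM in the comparison clusters, a log2 ratio of 2.23. Osm, oncostatin M, had 843 and 1088 CPM in cluster 5, against 199.7 and 159 CPM in the comparison clusters, a log2 ratio of 2.39. In cluster 7 Il1rn and Osm had 1244 and 654 CPM, against 526 and 965 CPM in cluster 5. The anti-inflammatory Il10 was lower, with 26.8 and 19.4 CPM in cluster 5, against 77.8 and 74.0 CPM in the comparison clusters, a log2 ratio of -1.54.

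Chemokine receptors had 2 higher and 1 lower of 9 genes at the level. Among the receptors Ccr1 had 290.3 and 179.9 CPM in cluster 5, against 58.9 and 52.6 CPM in the comparison clusters, a log2 ratio of 1.95, and Cxcr4, the marrow-retention receptor, had 372 and 424 CPM in cluster 5, against 167 and 152 CPM in the comparison clusters, a log2 ratio of 1.29. Ccr7, which guides dendritic cells to lymph nodes, was lower at 44.7 CPM in cluster 5, against 615 CPM in the comparison clusters, and cluster 12 carries it (5218 CPM). Cx3cr1, a receptor of nonclassical monocytes, was at 110.2 CPM in cluster 5, against 102 CPM in the comparison clusters. Cluster 7 had 896 CPM of Ccr1 and 676 CPM of Cxcr4, above the 235 and 398 CPM of cluster 5. Of the 17 ligands at the level, 8 were called lower and 1, Cxcl3, higher. Cxcl3 had 51.1 CPM in cluster 5, against 806 CPM in cluster 7, and its log2 ratio was -0.44 with all 13 other clusters in the comparison. The CCR2 ligands Ccl7 and Ccl12 were among the lower ones: Ccl7 had 198 and 340.5 CPM in cluster 5, against 944 and 780.5 CPM in the comparison clusters, a log2 ratio of -1.71, and Ccl12 had 46.8 and 116 CPM in cluster 5, against 340.1 and 624 CPM in the comparison clusters, a log2 ratio of -2.55. Pf4, platelet factor 4, which resident macrophages also express, had 143 and 242 CPM in cluster 5, against 864 and 1165 CPM in the comparison clusters, a log2 ratio of -2.40. The adhesion list had 3 of 12 higher and none lower. Besides Itgal these were Cd44, a hyaluronan receptor, and Emilin2, an extracellular matrix glycoprotein. Cd44 had 983 and 814 CPM in cluster 5, against 277 and 256 CPM in the comparison clusters, a log2 ratio of 1.73. Emilin2 had 301 and 229.7 CPM in cluster 5, against 54.2 and 45.2 CPM in the comparison clusters, a log2 ratio of 2.30. In cluster 7 Cd44 and Emilin2 had 1437 and 247 CPM, against 898 and 265 CPM in cluster 5.

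Coagulation and matrix genes had the highest median of the lists after the given markers, 2.09. Of 9 at the level, 6 were called higher and 1 lower. Thbs1, F10 and Vcan are given above. Tgm2, tissue transglutaminase, had 309 and 314 CPM in cluster 5, against 46.3 and 34.8 CPM in the comparison clusters, a log2 ratio of 2.81. Plaur, the urokinase receptor, had 449 and 489 CPM in cluster 5, against 106 and 106 CPM in the comparison clusters, a log2 ratio of 2.09, and Tgfbi, a matrix protein, had 1641 and 1500.3 CPM in cluster 5, against 534 and 575 CPM in the comparison clusters, a log2 ratio of 1.49. Cluster 7 had 829 CPM of Plaur and 516 CPM of Tgm2, above the 469 and 312 CPM of cluster 5. For Tgfbi it had 347 CPM, below the 1571 CPM of cluster 5. F3, tissue factor, was lower at 6.11 CPM in cluster 5, against 72.5 CPM in the comparison clusters, and cluster 9 had 625 CPM. In the list of S100 and host defence proteins 3 of 10 were higher, Hp, Slpi and the peptidoglycan-binding Pglyrp1. The S100 genes that many monocytes share with neutrophils were not: S100a8 had 5 UMIs in cluster 5 and S100a9 had 25, all 25 in 1 cell. S100a6, S100a10 and S100a4 reached the level without a call, at 1241 CPM in cluster 5, against 651 CPM in the comparison clusters for S100a6.

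All 8 of the genes of resident macrophages that reached the level, of 10 listed, were called lower (median -1.95). Pf4 is given above. Cd163, the haemoglobin scavenger receptor, had 12.04 and 51.2 CPM in cluster 5, against 162 and 156 CPM in the comparison clusters, a log2 ratio of -2.40. Mrc1, the mannose receptor, had 163 and 219 CPM in cluster 5, against 566 and 645 CPM in the comparison clusters, a log2 ratio of -1.65. Folr2 and Lyve1, markers of resident macrophages of the vessel wall, averaged 71.4 CPM in cluster 5, against 225 CPM in the comparison clusters for Folr2 and 41.1 CPM in cluster 5, against 165 CPM in the comparison clusters for Lyve1. Among the comparison clusters, cluster 0 had the highest level for 7 of the 8 and cluster 2 for Mrc1. Cluster 3, outside the comparison, was higher still for Pf4, Ccl8, Gas6 and Cbr2, with 3954 CPM of Pf4 beside 2983 CPM in cluster 0. Low levels were not particular to cluster 5. The 10 listed genes summed to 733 CPM in cluster 5 and to 1133, 1159, 328 and 971 CPM in clusters 1, 4, 12 and 13. Cluster 1 lay below cluster 5 for Lyve1, Cd163, Folr2 and Ccl8 and above it for Pf4, Mrc1, Gas6 and Cbr2. Under the median of the comparison clusters the log2 ratios of Pf4, Cd163 and Mrc1 were -1.37, -1.06 and -1.13 and that of Lyve1 was -0.48. Of the complement list 4 of 11 were lower, among them C1qa, a chain of C1q, with 1445 and 1478 CPM in cluster 5, against 3353 and 3506 CPM in the comparison clusters, a log2 ratio of -1.23. Clusters 4, 11, 12 and 13 lay below cluster 5 for C1qa, at 1087, 1269, 350 and 1229 CPM. Clusters 0, 1, 2, 6 and 9 had 2378 to 7604 CPM. The efferocytosis list had 1 higher of 15, Cd300lf, and 4 lower. Of these, Gas6 and Mfge8 bridge dying cells to phagocytes. The transcription factor Maf was also lower, at 84.8 CPM in cluster 5, against 211 CPM in the comparison clusters.

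Several genes of lipid-laden macrophages were higher. Of 9 in that list at the level, 4 were called higher and none lower (median 1.11, and -0.03 with all 13 other clusters in the comparison). Spp1, osteopontin, had 776 and 1336 CPM in cluster 5, against 294 and 153 CPM in the comparison clusters, a log2 ratio of 2.23, and cluster 1 was close at 943 CPM. Lgals3, galectin 3, had 3462 and 4952 CPM in cluster 5, against 1099.6 and 1064 CPM in the comparison clusters, a log2 ratio of 1.93. Abcg1, which exports cholesterol, had 213 and 248 CPM in cluster 5, against 83.3 and 87.2 CPM in the comparison clusters, a log2 ratio of 1.38. Gpnmb is given above, and its level in library 1-1 was 86.7 CPM, against 285 to 304 CPM in the 3 other libraries of cluster 5. Among genes of lipid uptake and efflux 5 of 16 were higher and none lower. Nr1h3, the sterol sensor LXR alpha, had 64.2 and 47.1 CPM in cluster 5, against 6.48 and 6.33 CPM in the comparison clusters, a log2 ratio of 2.40. Cluster 8, outside the comparison, had 13270 CPM of Lgals3 and 114 CPM of Nr1h3, above the 4207 and 55.6 CPM of cluster 5. For Abcg1 it had 137 CPM, below the 230 CPM of cluster 5. Msr1, a scavenger receptor, and Soat1, which stores cholesterol as esters, averaged 103 CPM in cluster 5, against 39.2 CPM in the comparison clusters for Msr1 and 105 CPM in cluster 5, against 40.8 CPM in the comparison clusters for Soat1. For Msr1 clusters 2 and 0 were close, at 98.2 and 80.0 CPM. The highest comparison cluster for Soat1 was cluster 4, at 59.6 CPM. Cd36 and Lpl were not called, and of 18 genes of cholesterol synthesis 4 reached the level with no call.

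Growth factor receptors included 3 higher genes of 17, the receptor beta chains Csf2rb and Csf2rb2 and the granulocyte colony-stimulating factor receptor Csf3r. Csf3r had 71.3 CPM in cluster 5, against 789 CPM in cluster 7, and its log2 ratio was -0.18 with all 13 other clusters in the comparison. Csf2rb had 314 and 407 CPM in cluster 5, against 123 and 146 CPM in the comparison clusters, a log2 ratio of 1.39. Csf1r, the receptor that macrophages depend on, was not called, at 384 CPM in cluster 5, against 444 CPM in the comparison clusters. Flt3, a receptor of dendritic cells and their progenitors, was lower, at 8.86 CPM in cluster 5, against 48.0 CPM in the comparison clusters. Of 25 transcription factors of myeloid fate at the level, Nr1h3 and Runx3 were higher and Irf8, Klf2, Maf and Batf3 lower. Runx3 had 243 and 246 CPM in cluster 5, against 118 and 109.7 CPM in the comparison clusters, a log2 ratio of 1.08. Clusters 4 and 11 were close for Runx3, at 224 and 188 CPM, beside the 245 CPM of cluster 5. Cebpb, which nonclassical monocytes need, had 1582 and 2173 CPM in cluster 5, against 792 and 834 CPM in the comparison clusters, a log2 ratio of 1.19 and missed the call in 1 biological replicate. Irf8, a factor of dendritic cells and monocytes, had 207 and 179.9 CPM in cluster 5, against 445 and 411 CPM in the comparison clusters, a log2 ratio of -1.13. Clusters 11 and 12, with 1699 and 1020 CPM, carry that comparison value. The 7 other comparison clusters had 26.6 to 236 CPM, and with the median of the comparison clusters the log2 ratio of Irf8 was -0.03. Klf2, which quiescent myeloid cells express, had 246 and 298.9 CPM in cluster 5, against 640.3 and 831 CPM in the comparison clusters, a log2 ratio of -1.41.

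Few interferon-induced genes passed the call. Of 21 at the level, 2 were called higher, none was lower, and the median was 0.52. Slfn1 had 49.5 and 45.7 CPM in cluster 5, against 7.20 and 6.91 CPM in the comparison clusters, a log2 ratio of 2.12. Cluster 7 had 144 CPM of it. Zbp1, a nucleic acid sensor, had 109.7 and 120.4 CPM in cluster 5, against 40.7 and 39.6 CPM in the comparison clusters, a log2 ratio of 1.41. Ifitm3, an antiviral membrane protein, had 2657 and 2584 CPM in cluster 5, against 1415 and 1549 CPM in the comparison clusters, a log2 ratio of 0.82. The glycolysis list had 3 of 15 higher: the glucose transporter Slc2a1, pyruvate kinase Pkm and the lactate exporter Slc16a3. Slc16a3 had 112 and 81.7 CPM in cluster 5, against 23.8 and 22.1 CPM in the comparison clusters, a log2 ratio of 1.85. None of the 21 lysosomal genes was called, although their median was 0.46. For MHC class II, 1 of 10 was called lower, H2-DMb2, and the median was -0.55. H2-Ab1 and Cd74 were spread widely among the cells, as described below. The MS4A list had 3 of 6 higher, Ms4a4c, Ms4a6c and Ms4a6d. The Fc receptor list had 1 lower of 7, Fcgrt, and the actin list 1 lower of 21, Gsn.

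**Figure D3:**
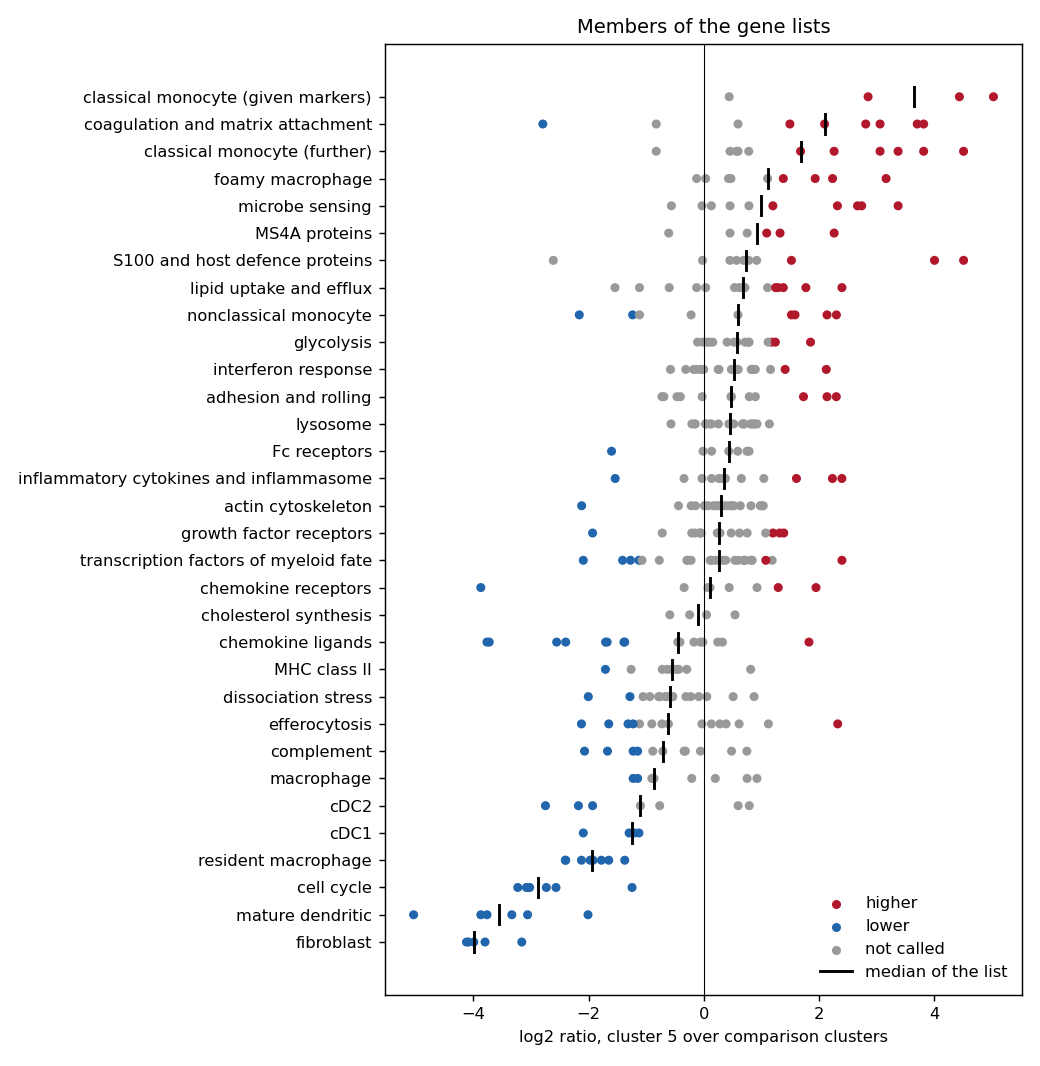
Log2 ratio of cluster 5 over the comparison clusters (horizontal axis) for the members of each list (rows) that reached 20 CPM, for lists with at least 4 such members; red dots were called higher, blue dots lower, grey dots neither, and black bars are list medians. The medians of the classical monocyte, coagulation and microbe sensing rows lie to the right of 0. Those of the resident macrophage, cell cycle, mature dendritic and fibroblast rows lie to the left. With the median of the comparison clusters in place of their mean, Ccr7 alone stayed at the level in the mature dendritic row, at 2.20. In the fibroblast row Dcn alone did, at 0.35.

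The 6 genes of natural killer cells had 0 UMIs in its 209 cells, the 4 genes of T cells had 1 UMI and the 4 genes of B cells had 9. Of 10 neutrophil genes, Csf3r was called higher and Il1r2 reached the level, while Ly6g and Retnlg had 0 UMIs and G0s2 had 10. The 10 together summed to 301 and 233 CPM in cluster 5, against 169 and 137 CPM in the comparison clusters, and to 30174 CPM in cluster 7. Fibroblast genes summed to 191 and 54.0 CPM in cluster 5, against 2239.8 and 1827 CPM in the comparison clusters, with 2 cells holding 55 and 53 of the 182 UMIs. Cluster 9 alone carries the comparison value, at 17635.5 CPM. Cluster 5 had 123 CPM, against 62.0 to 106 CPM in the 8 other comparison clusters. The median log2 ratio of the list was -3.99. Without clusters 6 and 9 in the comparison, Dcn alone of the list stayed at the level, at 0.49. Genes of mature dendritic cells summed to 25.4 and 104 CPM in cluster 5, against 1054 and 1044 CPM in the comparison clusters, and 1 cell held 46 of the 94 UMIs. Cluster 12 carries this comparison value, at 8853 CPM. Cluster 5 had 64.6 CPM, against 12.9 to 44.8 CPM in clusters 0, 1, 2, 6, 11 and 13. Clusters 4 and 9 were above it, at 352 and 81.0 CPM. The median log2 ratio of the list was -3.55. With the median of the comparison clusters, Ccr7 alone of the list stayed at the level, at 2.20. All 6 cell cycle genes at the level were lower, and cluster 6 was the highest comparison cluster for each. Top2a had 2.68 and 2.77 CPM in cluster 5, against 74.3 and 61.1 CPM in the comparison clusters, a log2 ratio of -3.23. Cluster 6 had 555 CPM of Top2a, and the 8 other comparison clusters had 2.56 to 13.7 CPM. The macrophage list had 2 lower of 9, C1qa and C1qc, and clusters 4, 11, 12 and 13 lay below cluster 5 for both. The lists of conventional dendritic cells had 3 lower of 7 (type 2) and 4 lower of 4 (type 1). Cd209a had 28.7 CPM in cluster 5, against 145 CPM in the comparison clusters and 838 CPM in cluster 4. The type 1 genes summed to 360 CPM in cluster 5 and to 4157 CPM in cluster 11. Clusters 0, 2 and 9 had 358, 313 and 290 CPM, and clusters 1, 4, 6, 12 and 13 had 431 to 1274 CPM. The dissociation genes had 2 lower of 16, Egr1 and Dnajb1, and a median of -0.59. Smooth muscle, endothelial and plasmacytoid dendritic genes summed to 8.19, 19.1 and 428 CPM in cluster 5, against 24.7, 17.4 and 469 CPM in the comparison clusters. Their part in the differences above was not tested.

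Of the 13 other clusters, cluster 5 was most like cluster 1, which has macrophage genes, and cluster 4, which has genes of type 2 conventional dendritic cells. Spearman correlations of CPM over the 5161 genes, which are not independent, were 0.87 and 0.86 with cluster 1 and 0.85 and 0.85 with cluster 4 in the 2 biological replicates. They were 0.76 and 0.69 with cluster 7, which is shallower. Against cluster 1 alone, 134 genes were higher in cluster 5 (2.71% of 4946) and 106 lower (2.14%). The 5 highest were Slpi, Ly6c2, F10, Plac8 and Hp. Slpi had 453 and 353 CPM in cluster 5, against 8.93 and 0.674 CPM in cluster 1 (log2 ratio 5.51 ± 0.66), and Plac8 had 1989 and 1513 CPM in cluster 5, against 121 and 35.7 CPM in cluster 1 (log2 ratio 4.5997 ± 0.88). The 3 lowest were Retnla, Nes, which encodes the filament protein nestin, and St3gal6, a sialyltransferase. St3gal6 had 2.68 and 8.30 CPM in cluster 5, against 81.5 and 103 CPM in cluster 1 (log2 ratio -3.26 ± 0.33). C1qa was lower too, with 1445 and 1478 CPM in cluster 5, against 6163 and 6009 CPM in cluster 1 (log2 ratio -2.05 ± 0.05). Spp1 was not called, with 776 and 1336 CPM in cluster 5, against 1120.0 and 765 CPM in cluster 1 (log2 ratio 0.14 ± 0.94).

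Against cluster 4, 211 genes were higher in cluster 5 (4.3% of 4908) and 116 lower (2.36%). The 5 highest were Chil3, Thbs1, Gpnmb, F10 and Hp. Thbs1 had 2455 and 1677 CPM in cluster 5, against 61.0 and 59.1 CPM in cluster 4 (log2 ratio 4.97 ± 0.36). The 3 lowest were Klrd1, a lectin-like receptor, Cd209a, the lectin that marks dendritic cells derived from monocytes, and Cd7. Klrd1 had 6.69 and 15.2 CPM in cluster 5, against 460.2 and 471 CPM in cluster 4 (log2 ratio -4.94 ± 0.54), and Cd209a had 22.7 and 34.6 CPM in cluster 5, against 862 and 814 CPM in cluster 4 (log2 ratio -4.67 ± 0.42). Ly6c2 had 399 and 318 CPM in cluster 5, against 42.5 and 35.4 CPM in cluster 4 (log2 ratio 3.04 ± 0.06), while Ccr2 had 512 and 374 CPM in cluster 5, against 457 and 388 CPM in cluster 4 (log2 ratio 0.06 ± 0.15). Plac8, Ccr2 and Il1b were not called between cluster 5 and cluster 4, while Ly6c2, Chil3, Hp and Thbs1 were called higher. Against cluster 7, 462 genes were higher (9.42% of 4905) and 395 lower (8.05%). The 5 highest were Fn1, Ms4a4c, S100a4, Mmp14 and Gpnmb, each on 7 or fewer UMIs in cluster 7 except S100a4, on 14. The 3 lowest were the neutrophil genes S100a9, S100a8 and G0s2, with G0s2 at 5.35 and 8.30 CPM in cluster 5, against 2656 and 4094 CPM in cluster 7 (log2 ratio -8.14 ± 0.18). Biological replicate 2 of cluster 7 held 40 cells, so those ratios are the least precise.

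Single cells were compared after each was drawn down at random to 2000 UMIs, which removes differences of depth. This left 200 of the 209 cells of cluster 5 (108 and 92 in the biological replicates) and 2070 of 2161 comparison cells. A UMI of Ly6c2 was found in 64 of 200 cells (32.0%, exact 95% interval 25.6 to 38.9%), of Chil3 in 54 of 200 cells (27.0%, exact 95% interval 21.0 to 33.7%), of Plac8 in 119 of 200 cells (59.5%, exact 95% interval 52.3 to 66.4%) and of Ccr2 in 104 of 200 cells (52.0%, exact 95% interval 44.8 to 59.1%). Without thinning the shares were 43.1%, 36.8%, 67.9% and 73.7% of the 209 cells. Cluster 12, with genes of mature dendritic cells, served as the background: of its 36 thinned cells none had a UMI of Ly6c2, Chil3 or Plac8, which allows a share of up to 8.33% (3 of 36 cells; the exact upper limit is 9.74%), and 2.78% had 1 of Ccr2. Ly6c2 was found in 5.19% of cluster 4 and 0.960% of cluster 1. Plac8 reached 67.4% in cluster 11 and 43.0% in cluster 4, and Ccr2 reached 90.0% in cluster 13. None of the 4 markers was detected in 34 of the 200 cells (17%), 1 was in 62, 2 were in 49, 3 were in 39 and all 4 were in 16. At full depth 14 of the 209 cells had none.

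**Figure D4:**
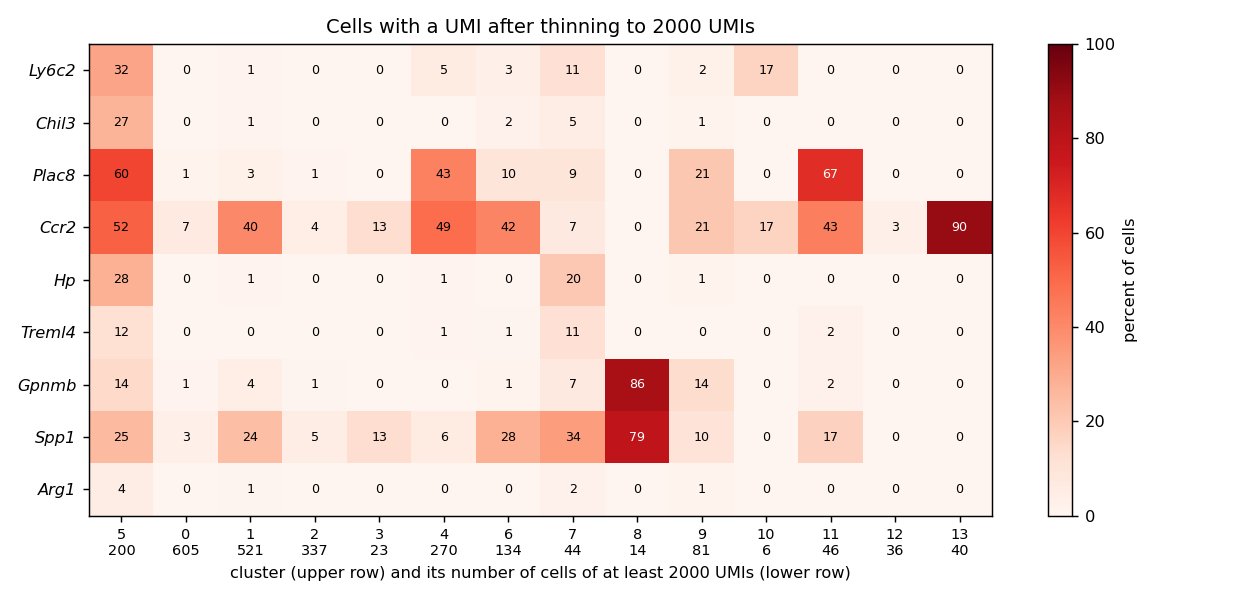
Percent of cells with at least 1 UMI of a gene (rows) after thinning every cell to 2000 UMIs, with cluster 5 in the first column and the other 13 clusters after it; the lower label is the number of cells left. Ly6c2 and Chil3 are at 32% and 27% in cluster 5 and at 5.19% or less in the 9 comparison clusters, whereas Ccr2 is highest in cluster 13 at 90% and Gpnmb and Spp1 in cluster 8, of which 14 cells were left.

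The spread of single genes among the cells was read from the Fano factor. The Fano factor, the variance of a gene's UMIs per cell over their mean, was highest for Fabp5, Lyz2, Cxcl2, Cd74, Ccl2, Fth1, Il1b, H2-Eb1, Ccl4 and H2-Ab1 among 2257 genes with a mean of at least 0.1 UMI per cell in each biological replicate. The median over those genes was 1.10, where 1 is the value of pure counting. Fabp5, a fatty acid binding protein, had a Fano factor of 28.02 (23.4 and 32.5 in the biological replicates), and 10 cells held 65.8% of its UMIs. Cxcl2, which attracts neutrophils, had 24.4, with a median of 5 and a maximum of 97 UMIs per cell. Ccl2, the ligand of CCR2, had 21.0, and 10 cells held 54.5% of its UMIs. Lyz2, lysozyme, was found in 199 of 200 cells, with 25.4. Il1b was found in 161 of 200, with 16.8. Cd74, the MHC class II chaperone, had 21.2, and H2-Ab1, a class II chain, was found in 116 of 200 cells with a maximum of 56 UMIs.

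Cells of the cluster with more UMIs of monocyte genes had fewer of antigen-presenting genes. Spearman correlations over the 200 cells were 0.47 (0.49 and 0.47 in the biological replicates) for Ly6c2 with Plac8 and 0.56 (0.62 and 0.46 in the biological replicates) for Plac8 with Hp. Chil3 followed Ly6c2 weakly, at 0.21 (0.27 and 0.10 in the biological replicates). Against H2-Ab1 the values were negative: -0.39 (-0.49 and -0.28 in the biological replicates) for Ly6c2, -0.41 (-0.36 and -0.51 in the biological replicates) for Plac8 and -0.39 (-0.45 and -0.31 in the biological replicates) for Hp. Plac8 with C1qb gave -0.52 (-0.54 and -0.51 in the biological replicates), and H2-Ab1 with C1qb gave 0.49 (0.59 and 0.35 in the biological replicates). Of the 64 cells with a UMI of Ly6c2, 20 had H2-Ab1 and 13 had C1qb. Of the 136 without, 96 had H2-Ab1 and 76 had C1qb. These cells share their libraries and the same 2000 UMIs, and the values are given as a description.

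Sums of genes, which hold several of the genes above in the same cells, were read next and are no separate support. The classical sum (Ly6c2, Chil3, Plac8, Hp and Vcan, chosen after values were seen) had a median of 3 UMIs per cell, a range of 0 to 46 and 57 cells at 0. In cluster 1 and cluster 4 the medians were 0, with 96.0% and 54.8% of cells at 0. Its Spearman correlation over cells of cluster 5 was -0.50 (-0.49 and -0.52 in the biological replicates) with the sum of H2-Aa, H2-Ab1, H2-Eb1 and Cd74, and -0.57 (-0.58 and -0.57 in the biological replicates) with the sum of C1qa, C1qb and C1qc. Cells with 3 or 4 of Ly6c2, Chil3, Plac8 and Hp detected (44 cells) had a median of 1 class II UMI and 0 C1q UMIs. With 2 detected (45 cells) the medians were 20 and 0, with 1 (54 cells) 33 and 1.5, and with none (57 cells) 62 and 13. The order of the class II medians from none to 3 or 4 was 80, 50, 11 and 1 in biological replicate 1. In biological replicate 2 it was 47, 17, 22 and 0.5, where 1 and 2 detected do not keep the order. The whole of cluster 5 had a median of 21.5 class II UMIs (quartiles 1 and 79.25), against 94 in cluster 1 and 124.5 in cluster 4. For C1q the median was 0, with 52.5% of cells at 0, against a median of 31 in cluster 1, where 1.92% were at 0. Detection of 4 sparse genes is a range and not a cell type, and doublets, which no caller removed here, were not tested as a source.

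Interferon-induced genes went with the monocyte genes. The sum of the 28 genes of that list had a Spearman correlation of 0.70 (0.71 and 0.71 in the biological replicates) with the classical sum. Ifitm3 alone gave 0.68, and without it the list gave 0.50 (0.56 and 0.42 in the biological replicates). All 12 members with a mean of at least 0.1 UMI per cell in each biological replicate were positive in both, with a median of 0.20, whereas the median over all 2257 genes was 0.00. Ms4a4c gave 0.55, and Ms4a7, a gene of macrophages, -0.31. Of 9 genes of lipid-laden macrophages 6 were negative in both biological replicates and none positive, with Cd9 at -0.45 and Spp1 at -0.32. Gpnmb went with Fabp5, at 0.49 (0.55 and 0.43 in the biological replicates), and Vegfa with Thbs1, at 0.34 (0.21 and 0.51 in the biological replicates). Gpnmb was found in 29 of 200 cells (14.5%, exact 95% interval 9.93 to 20.2%), Treml4 in 24 of 200 cells (12%, exact 95% interval 7.84 to 17.3%) and Arg1, which breaks down arginine, in 9 of 200 cells (4.50%, exact 95% interval 2.08 to 8.37%). The dissociation genes gave 0.11 (0.21 and 0.00 in the biological replicates) with the classical sum.

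**Figure D5:**
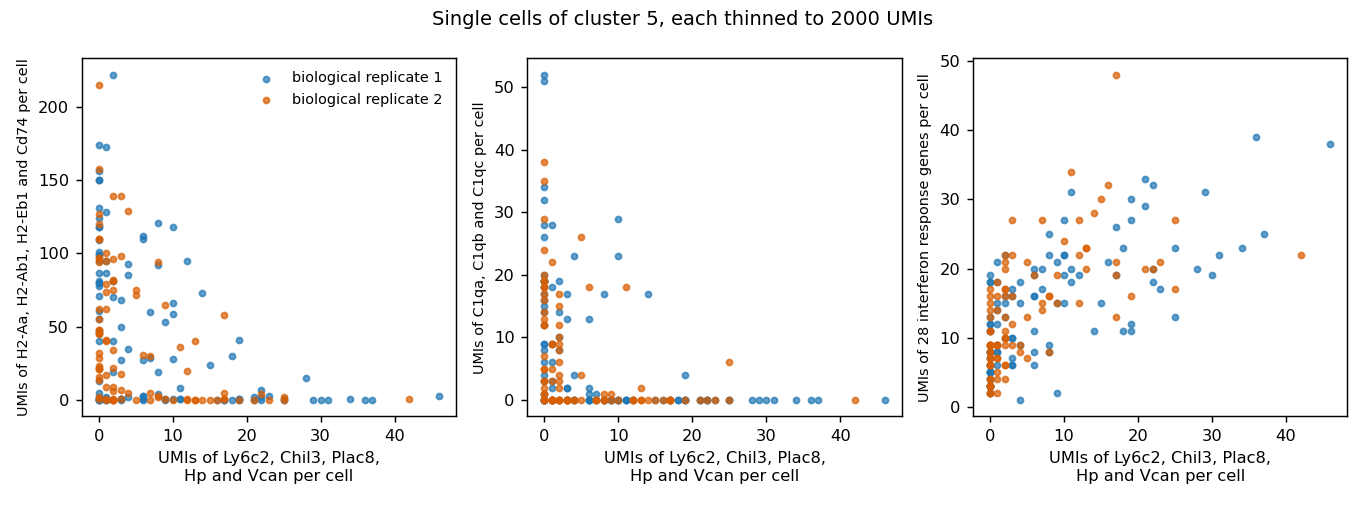
UMIs per cell of Ly6c2, Chil3, Plac8, Hp and Vcan together (horizontal axes) against those of 4 MHC class II genes, of 3 C1q genes and of 28 interferon response genes (vertical axes) in the 200 cells of cluster 5, each thinned to 2000 UMIs; colours are the 2 biological replicates. Cells high in the monocyte genes have few class II and C1q UMIs and many interferon response UMIs, with Spearman correlations of -0.50, -0.57 and 0.70.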

How the data were processed

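Live CD45+ aortic cells were profiled by 3′ single-cell RNA sequencing (10x Genomics) in 4 libraries. Reads were mapped to mm10 with Cell Ranger 3.0.2, per the labels' protocols, and Seurat 3.1.1 is named in the submitters' processing notes. The authors deposited raw UMI counts per gene and cell, the percent of mitochondrial UMIs and a cluster number for 3002 cells; their filters on cells and doublets are not stated in the labels, and no doublet caller was run. The sums per cell equal the deposited totals in all 3002 cells. Counts were summed by cluster and biological replicate and scaled to 1000000 (CPM). The log2 ratio used 5 CPM as pseudocount, and genes entered at a mean of 20 CPM over both sides. No p-value was computed, since the clusters were drawn from these counts, and where nothing shows separate animals the spread may be technical. Cells were thinned to 2000 UMIs with a fixed seed. Tools were Python 3.11.15, numpy 2.4.6, scipy 1.17.1 and edgeR 4.0.16 in R 4.3.3, the last for TMM factors and a fitted log2 fold change as alternatives. The ratio and call were tested on simulated data in which all comparison clusters shared the same mean profile. That test cannot show how the call behaves where a single cluster carries the comparison mean. Apart from genes not reported here, the text names the 15 highest and 10 lowest genes, the 10 of highest Fano factor, the 5 highest and 3 lowest against clusters 1, 4 and 7, and members of the lists; other genes were chosen after their values were seen. The members and lists were chosen with earlier results of these data known.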

Additional observations from a re-analysis of the deposited data

Results flagged for a closer look

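In cluster 5, 61 values were compared over the 4 libraries, and in 5 of them 1 library lay apart from the others by Dixon's gap criterion, where chance gives about 1 in 20 (3.05 of 61). Gpnmb had 86.7 CPM in library 1-1, against 285 to 304 CPM in the other libraries. The 6 genes of mature dendritic cells summed to 175 CPM in library 2-1, against 19.3 to 45.4 CPM in the others. T cell genes summed to 2.52 CPM in library 2-2, which is 1 UMI, and to 0 in the others. Growth factor receptors summed to 2523 CPM in library 1-1, against 2371 to 2395 CPM, and lysosomal genes to 15979 CPM in library 1-1, against 19157 to 19801 CPM. Library 1-1 holds 19 cells of cluster 5.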

How the results depend on the processing

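The 144 higher genes numbered 99 to 179 under the alternatives other than the edgeR fit, which gave 390, and the median of the comparison clusters, which gave 204; leaving out 1 library gave 136 to 144. The 232 lower genes numbered 110 at a minimum of 50 CPM and 654 with no filter. Other comparisons gave 187 with all 13 other clusters, 208 with pooled counts, 174 without clusters 6, 7 and 9 and 48 with the median of the comparison clusters (chosen after seeing the data). Leaving out 1 library gave 209 to 227. The edgeR fit gave 156. Cluster 5 was 8.65% of cells with at least 2000 UMIs, and 6.64 to 7.45% with 1 library left out. With thinned cells, 190 genes were lower than in cluster 1, against 106. Of 1645 alternative log2 ratios of 117 called genes, 21 changed sign. Without clusters 6, 7 and 9 they were Dcn 0.49, Mgp 0.046 and Gsn 0.49. With the median they were Dcn 0.35, Mgp 0.16, Ear2 1.41, Ccr7 2.20 and Gsn 0.21. In the edgeR fit, which averages the logs of the clusters, they were Eno3 0.77, Ear2 2.42, Cd209a 0.055, Ccr7 1.49, Il4i1 0.41, Lum 0.23, F3 0.28 and Gsn 0.016. With all 13 other clusters they were Csf3r -0.18, Spp1 -0.035, Cxcl3 -0.44 and Fabp4 -0.12, and with pooled counts Ear2 was 0.20. The cause was not tested. Of 554 alternative list medians, each over the members still at the level, 21 changed sign, in 11 lists. Of 35 shares of cells, 17 stayed within their exact interval when cells were thinned to 1000 UMIs. No paired analysis was possible because no test was made; each log2 ratio was formed between clusters of the same biological replicate.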

Other observations

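The genes below are outside the lists and were picked one by one after their values were seen, so they stand for no group. Arg1, which splits arginine, had 61.5 and 40.1 CPM in cluster 5, against 2.53 and 2.82 CPM in the comparison clusters (log2 ratio 2.84 ± 0.43), and Arg2, its mitochondrial relative, had 52.2 and 59.5 CPM in cluster 5, against 7.82 and 6.74 CPM in the comparison clusters (log2 ratio 2.31 ± 0.21). Odc1, which makes polyamines from the product of arginase, had 441 and 466 CPM in cluster 5, against 176 and 178 CPM in the comparison clusters (log2 ratio 1.33 ± 0.05). Smox, spermine oxidase, had 173 and 156 CPM in cluster 5, against 38.1 and 33.5 CPM in the comparison clusters (log2 ratio 2.05 ± 0.02). For these 4 genes no comparison cluster reached the level of cluster 5.

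Prdx5, a peroxiredoxin, had 734 and 574 CPM in cluster 5, against 215 and 212 CPM in the comparison clusters (log2 ratio 1.58 ± 0.24). Msrb1, which repairs oxidised methionine, had 631 and 585 CPM in cluster 5, against 88.3 and 92.7 CPM in the comparison clusters (log2 ratio 2.68 ± 0.12). Fth1, the ferritin heavy chain that stores iron, had 28702 and 30692 CPM in cluster 5, against 12843 and 12748 CPM in the comparison clusters (log2 ratio 1.21 ± 0.08). Hilpda, a lipid droplet protein, had 610.0 and 453 CPM in cluster 5, against 137 and 111 CPM in the comparison clusters (log2 ratio 2.05 ± 0.10), and Hif1a, the oxygen-regulated transcription factor, had 268 and 179.9 CPM in cluster 5, against 94.6 and 84.5 CPM in the comparison clusters (log2 ratio 1.25 ± 0.29). Ptgs2, which makes prostaglandins, had 728 and 516 CPM in cluster 5, against 238 and 173 CPM in the comparison clusters (log2 ratio 1.57 ± 0.03). Cst3, the protease inhibitor cystatin C, was below every comparison cluster, with 2564 and 2849.7 CPM in cluster 5, against 7528 and 7871 CPM in the comparison clusters (log2 ratio -1.51 ± 0.06).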
